A study of Danio rerio with 6 samples.

Results

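The zebrafish mitochondrial genome transcripts were described through the 37 rows of the deposited count tables whose names start with mt- (13 rows) or with AC024175. (24 rows), out of 31417 rows in all, 92 of them spike-in rows. The counts are MARS-seq data, a plate-based single-cell RNA-seq method that tags the 3′ end of each polyadenylated RNA with a unique molecular identifier (UMI), from dissociated pituitaries, whose cells the labels describe as neurohypophysis-enriched (the neurohypophysis is the posterior, neural lobe). All fish were AB zebrafish carrying Tg(pomca:EGFP), a green reporter driven by the promoter of the pro-opiomelanocortin gene pomca, and all had received the fluorescent dipeptide β-Ala-Lys-Nε-AMCA at 4.6 mM, so no uninjected or non-transgenic group was compared. There were 3 ages: juveniles at 37 days post-fertilization (dpf) injected with 5 µl, and male adults at 5 months and at 7 months injected with 10 µl. Pituitaries were taken after 3 hours, 5 per age were pooled, and propidium iodide-stained cells were sorted into 2 plates of 384 wells per age. The 2 plates of an age therefore share a pool, and the spread between them and the p-values below describe plates, not fish. The sex of the juveniles is not stated in the sources used here, and the injected volume differs between juveniles and adults.

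The mitochondrial genome is transcribed from both strands into long precursor RNAs that are cut into ribosomal, transfer and messenger RNAs. Its messenger RNAs encode core subunits of the respiratory chain: mt-nd1, mt-nd2, mt-nd3, mt-nd4, mt-nd4l, mt-nd5 and mt-nd6 of complex I (NADH dehydrogenase), mt-cyb of complex III, mt-co1, mt-co2 and mt-co3 of complex IV (cytochrome c oxidase), and mt-atp6 and mt-atp8 of complex V (ATP synthase). Complex II and most subunits of the other complexes are encoded in the nucleus. Pituicytes are the glia of the neurohypophysis, gonadotropes make the gonadotropins, and macrophages, stromal cells and erythrocytes are other cells of the dissociated tissue. All 13 mt- rows were found in the gene table used for names and none of the 24 AC024175 rows was, so the AC024175 rows are given by their row names alone. The RefSeq table lists 13 protein-coding, 22 tRNA and 2 rRNA genes on the mitochondrial chromosome. In it ATP8 overlaps ATP6, ATP6 overlaps COX3, ND4L overlaps ND4 and ND5 overlaps ND6, so the counts of these pairs are uncertain where the counting could not separate them, and its use of strand is not given in the sources used here.

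The plates held 1007989 and 1178471 UMIs at 37 dpf, 465093 and 284484 at 5 months and, at 7 months, 227487 and 105793. Wells with at least 400 UMIs in all were used, which were 1390 of 2304 wells: 311 and 339 at 37 dpf, 257 and 174 at 5 months and, at 7 months, 203 and 106. Their median total was 2105 and 1878 UMIs at 37 dpf, 1200 and 1085 at 5 months and, at 7 months, 923 and 676. All 4 adult plates are listed in sequencing batch SB390 and the second 37 dpf plate in batch SB350, and no batch is listed for the first 37 dpf plate. Both adult ages thus share 1 batch, and wherever adults are set against juveniles age and batch cannot be told apart. No well name was shared between plates.

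The mt- and AC024175 rows together took a larger share of the UMIs in adults than in juveniles. They held 15.8% and 19.3% of UMIs on the 37 dpf plates, 32.2% and 38.6% at 5 months and, at 7 months, 28.5% and 31.2%, and no adult plate overlapped a juvenile one. As means over the 2 plates of an age this was 17.6% ± 2.52 at 37 dpf, 35.4% ± 4.54 at 5 months and 29.9% ± 1.95 at 7 months (SD, n = 2 plates). Most of the difference lay in 1 row, AC024175.4. It held 10.1% and 13.7% of UMIs at 37 dpf, 26.1% and 31.8% at 5 months and, at 7 months, 24.3% and 26.5%. The 13 mt- rows summed to 4.75% and 4.24% at 37 dpf, 4.49% and 5.17% at 5 months and, at 7 months, 3.21% and 3.46%. As a share of all UMIs their sum was thus lowest at 7 months and overlapped between 5 months and 37 dpf. All UMIs include those of AC024175.4, so a larger share of that row lowers these percents. The overlap therefore does not give the level of the mt- rows among the other rows. The same total underlies the values of single mt- rows per UMIs of the plate below. Per UMI of the mt- rows, AC024175.4 had 2.14 and 3.23 UMIs at 37 dpf, 5.82 and 6.15 at 5 months and, at 7 months, 7.58 and 7.66, with no overlap between ages.

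**Figure D1:**
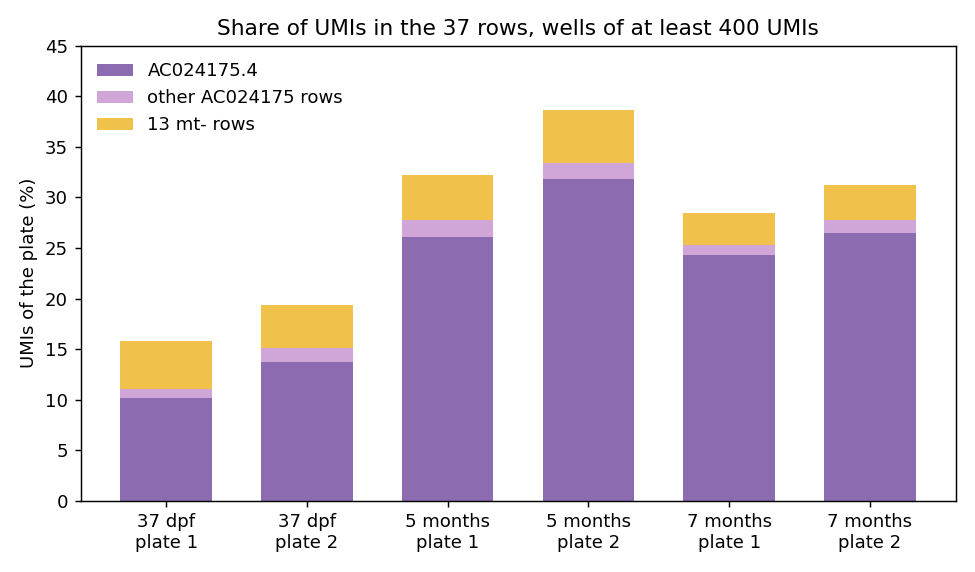
Percent of the UMIs of each plate (y axis) in AC024175.4, in the other 23 AC024175 rows and in the 13 mt- rows, over wells of at least 400 UMIs, for the 6 plates in order of age (x axis). The purple AC024175.4 part is 10.1% and 13.7% at 37 dpf and between 24.3% and 31.8% on the adult plates. The yellow mt- part is between 3.21% and 5.17% of the same total, which includes AC024175.4.

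Beside this shift, the cells on the plates differed between ages. The 15 erythroid markers found in the tables (of 18 listed) made up 4.69% and 5.67% of the UMIs outside the mt- and AC024175 rows on the 37 dpf plates, among wells with less than 50% of their UMIs in these rows, and 0, 0, 0 and 1 UMI in such wells of the 4 adult plates. By the marker rule given below, 65 and 78 juvenile wells were erythroid and 0 adult wells were. Keratinocyte wells (28 and 26) and cartilage wells (22 and 21) were also found at 37 dpf and on no adult plate. Gonadotropin-rich wells were found only on adult plates. The part of erythroid wells in the shares was measured by leaving them out: the combined share of the remaining wells was then 16.4% and 19.9% on the 37 dpf plates. Keratinocyte and cartilage wells were not left out. The keratinocyte wells held 11.6% and 14.1% of their UMIs in the mt- and AC024175 rows, against 16.2% and 19.8% in the other wells of their plates. In sums over a plate, fewer cells of a type and less RNA per cell cannot be told apart.

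Among the AC024175 rows, counts were very uneven. AC024175.4, AC024175.17, AC024175.16 and AC024175.20 had at least 1000 UMIs over all wells, and AC024175.7, AC024175.10 and AC024175.15 had at least 100 and under 1000. A further 7 rows had 10 to 99 UMIs, namely AC024175.1, AC024175.3, AC024175.6, AC024175.9, AC024175.21, AC024175.23 and AC024175.24. The 5 rows AC024175.11, AC024175.13, AC024175.18, AC024175.19 and AC024175.22 had 3 to 8 UMIs. No UMI was found for AC024175.2, AC024175.5, AC024175.8, AC024175.12 and AC024175.14, which on the plate with the most UMIs allows up to 2.57 CPM (UMIs of a row per 1000000 UMIs of the plate) and on the plate with the fewest up to 36.6 CPM, at the limit of 3 counts, for counting error only. AC024175.17, the second most abundant of these rows, had 6430 and 11878 CPM at 37 dpf, 15744 and 16170 CPM at 5 months and, at 7 months, 8965 and 12081 CPM. Its 5-month plates were the highest, and its 7-month and 37 dpf plates overlapped. AC024175.7 had 188 and 191 CPM at 37 dpf, 307 and 264 CPM at 5 months and, at 7 months, 220.2 and 354 CPM. AC024175.10 lay between 29.4 and 72.9 CPM and AC024175.15 between 24.4 and 78.9 CPM over the 6 plates, and AC024175.1 between 8.07 and 42.1 CPM.

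AC024175.16 and AC024175.20 were abundant in juveniles and nearly absent in adults. AC024175.16 had 967 and 739 CPM on the 37 dpf plates, 70.6 and 38.2 CPM at 5 months and, at 7 months, 53.8 and 24.4 CPM. AC024175.20 had 1259 and 910.4 CPM at 37 dpf, 27.3 and 19.1 CPM at 5 months and, at 7 months, 9.79 and 12.2 CPM. For both rows each juvenile plate was more than 10 times as high as any adult plate. In counts these were 13 UMIs at 7 months, 41 at 5 months and 1820 at 37 dpf for AC024175.16, and 3, 17 and 2310 UMIs for AC024175.20. The ratio of AC024175.20 at 7 months to 37 dpf was 0.00979 (95% exact counting interval 0.00202 to 0.0286), from only 3 UMIs at 7 months, and that of AC024175.16 was 0.0538 (0.0286 to 0.0923). The juvenile level was found in every marker class with at least 10 wells. AC024175.16 lay between 640 CPM in keratinocyte wells and 1435 CPM in macrophage wells of the pooled 37 dpf plates, and AC024175.20 between 706 CPM in keratinocyte wells and 1496 CPM in stromal wells. At 5 months the macrophage wells held 60.7 CPM of AC024175.16 (7 UMIs) and 26.0 CPM of AC024175.20 (3 UMIs), against 1435 CPM and 1379 CPM in the juvenile macrophage wells.

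The mt- rows were led by complex IV. As shares of UMIs, not corrected for gene length, mt-co1, mt-co2 and mt-co3 made up 56.5% and 57.3% of the mt- UMIs at 37 dpf, 64.5% and 64.3% at 5 months and, at 7 months, 66.1% and 65.4%. Complex V made up 15.7% and 15.2% of them at 37 dpf, 10.0% and 9.78% at 5 months and, at 7 months, 9.79% and 9.63%, nearly all of it mt-atp6. The complex I rows together held 21.1% and 20.5% at 37 dpf, 19.2% and 19.4% at 5 months and, at 7 months, 17.6% and 18.6%. Within complex I the rows went different ways: mt-nd5 made up 1.14% and 1.68% of mt- UMIs at 37 dpf and between 2.04% and 2.51% on the adult plates, while mt-nd1 made up 5.51% and 5.07% at 37 dpf and between 3.49% and 4.19% on the adult plates. Complex III, which is mt-cyb alone, stayed between 6.29% and 6.91%.

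**Figure D2:**
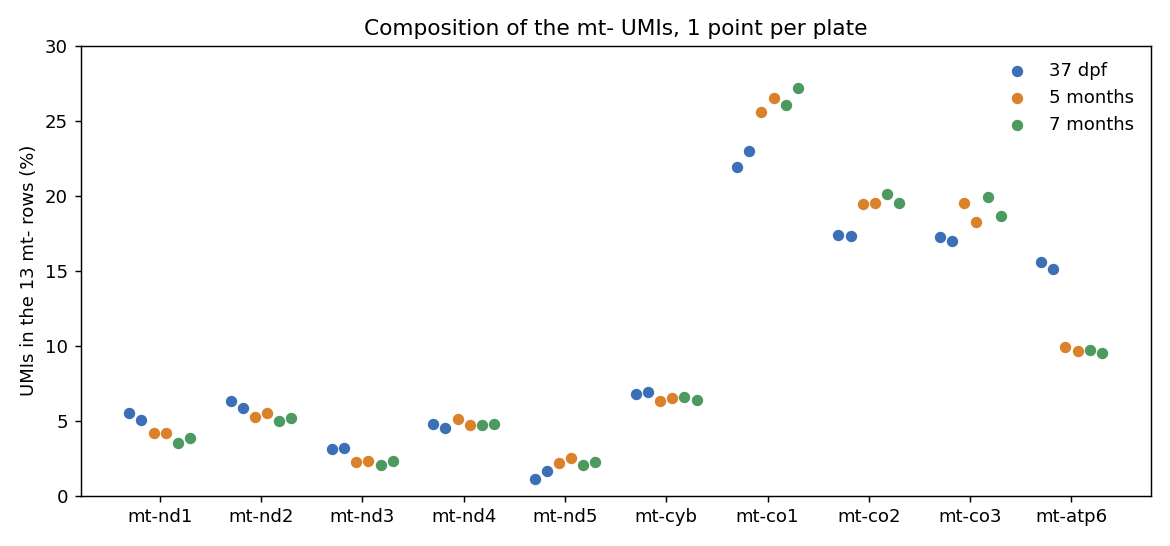
Percent of the UMIs of the 13 mt- rows (y axis) held by each of the 10 rows with at least 1000 UMIs (x axis), 1 point per plate in wells of at least 400 UMIs, coloured by age. The mt-atp6 points are near 15% at 37 dpf and just under 10% in adults, and the mt-co1 points lie at 21.9% and 23.0% at 37 dpf and between 25.6% and 27.2% in adults.

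In CPM, mt-co1, a catalytic subunit of cytochrome c oxidase, had 10391 and 9744 CPM at 37 dpf, 11474 and 13718 CPM at 5 months and, at 7 months, 8353 and 9420 CPM. Its 5-month plates were highest and its 7-month plates lowest. The copper-binding subunit mt-co2 lay between 6464 and 10112 CPM and mt-co3 between 6386 and 9439 CPM over the 6 plates, in the same order of ages. The ATP synthase proton-channel subunit mt-atp6 had 7402 and 6424 CPM at 37 dpf, 4446 and 5002 CPM at 5 months and, at 7 months, 3117 and 3283 CPM, with no overlap between ages. Cytochrome b, mt-cyb, lay between 2109 and 3362 CPM. The NADH dehydrogenase subunits mt-nd1, mt-nd2, mt-nd3 and mt-nd4 had their lowest values at 7 months, with 1121 and 1342, 1595 and 1782, 666 and 805, and 1512 and 1647 CPM. At 5 months these rows had 1880 and 2146, 2340 and 2842, 1020 and 1205, and 2306 and 2451 CPM, and mt-nd5 had 977 and 1300 CPM, its highest values. The rows mt-nd4l, mt-atp8 and mt-nd6 were low, with 80, 88 and 105 UMIs at 37 dpf, and lay between 0 and 73.2 CPM on all plates. Each belongs to an overlapping pair named above, so these low counts need not give the level of the transcript.

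Ages were tested with edgeR's quasi-likelihood test on counts summed per plate, with p-values adjusted by Benjamini-Hochberg over the 4411 rows tested and called at an adjusted p under 0.05. Of the 37 rows, 21 passed the filter on low counts, some of them only through the age at which they were high. At 7 months against 5 months no row was called by edgeR, 0 higher and 0 lower of 21, against 1.02% higher and 1.2% lower among all rows tested, of which 687 had an unadjusted p under 0.05, 11 of the 21 among them. DESeq2 called 6 of the 21 lower at 7 months, mt-atp6, mt-co2, mt-co3, mt-nd1, mt-nd2 and mt-nd4, with log2 changes of -0.73 to -0.95. The edgeR log2 changes of the 21 rows had a median of -0.76, against -0.06 over all rows tested. The edgeR test called 8 of them without the first or without the second 7-month plate, and 1 without the first 37 dpf plate. A left-out plate leaves its age with 1 plate, which is then assumed to vary like the plates of the other ages, here and in the following comparisons.

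At 5 months against 37 dpf 5 of the 21 rows were called higher and 2 lower, against a background of 24.3% higher and 26.3% lower among all rows tested. AC024175.4 was higher by 1.48 on the log2 scale (SE 0.24, edgeR adjusted p 0.000414). AC024175.17 was higher by 0.99 (SE 0.28, edgeR adjusted p 0.0113), and mt-nd5 by 1.06 (SE 0.27, edgeR adjusted p 0.00666). Among wells with at least 400 UMIs outside the mt- and AC024175 rows neither was called. The log2 changes there were 0.27 for AC024175.17 and 0.35 for mt-nd5 (edgeR adjusted p 0.397 and 0.249). AC024175.1, with 19 UMIs at 5 months and 22 at 37 dpf, and AC024175.7 were the other 2 called higher, and both calls were lost without either 37 dpf plate or either 5-month plate. AC024175.16 fell by 3.75 (SE 0.35) and AC024175.20 by 5.33 (SE 0.36), with edgeR adjusted p of 6.84e-06 and 5.02e-07. These 2 fitted changes rest on few adult counts: AC024175.16 had 31 and 10 UMIs on the 5-month plates, against 958 and 862 on the 37 dpf plates, and AC024175.20 had 12 and 5 UMIs, against 1248 and 1062. AC024175.20 passed the filter only through the juvenile plates. AC024175.1 passed it only through the second 5-month plate (42.1 CPM) and the second 7-month plate (36.6 CPM). The other 12 mt- rows were not called, with log2 changes between -0.36 and 0.52. The number called was 3 without the first 37 dpf plate, 4 without the first 5-month plate and 2 without the second, and the call of AC024175.4 was lost without the second 5-month plate (edgeR adjusted p 0.145).

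At 7 months against 37 dpf 1 of 21 rows was higher and 6 were lower, against 22.6% higher and 26.1% lower among all rows tested. AC024175.4 was again the row called higher, by 1.04 (SE 0.24, edgeR adjusted p 0.00398), a call lost without the first 37 dpf plate (edgeR adjusted p 0.159) and without the second 5-month plate (0.23). AC024175.16 fell by 4.31 and AC024175.20 had a log2 change of -6.70, fitted on 11 and 2 UMIs and on 2 and 1 UMIs of the 7-month plates. The rows mt-atp6, mt-nd1, mt-nd2 and mt-nd3 were lower by log2 changes of -1.17, -1.01, -0.76 and -1.01, with edgeR adjusted p of 0.00135 to 0.0211. The call of mt-nd2 was lost without the first 37 dpf plate (edgeR adjusted p 0.076). Without the first 7-month plate 13 rows were called. The comparisons of 5 and of 7 months share the 37 dpf plates.

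At 5 months the sign of 7 of the 13 mt- rows depended on which wells were summed. Among wells with at least 400 UMIs outside the mt- and AC024175 rows, 1 of 20 rows was higher and 8 were lower at 5 months against 37 dpf, against 25.1% higher and 28% lower among all rows tested. There mt-atp6 (-1.05), mt-nd3 (-0.81), mt-nd1 (-0.74), mt-nd2 (-0.62) and mt-cyb (-0.57) were called lower, with edgeR adjusted p of 0.0013 to 0.0301. So were AC024175.16, AC024175.20 and AC024175.15 (-1.30, edgeR adjusted p 0.0364). AC024175.15 had only 14 and 12 UMIs on the 5-month plates over all wells of at least 400 UMIs, where it was not called. The values of mt-nd2 and mt-cyb over all wells of at least 400 UMIs were 0.11 and 0.21. In the same wells 1 row was higher and 11 were lower at 7 months against 37 dpf, against 23.3% higher and 27% lower among all rows tested. Those 11 were AC024175.16, AC024175.20 and all mt- rows with at least 1000 UMIs but mt-nd5, which had a log2 change of -0.35. AC024175.4 remained the row called higher, by 0.78 at 5 months and 0.66 at 7 months (edgeR adjusted p 0.00388 and 0.0097). Scaling with DESeq2 size factors or without the mt- and AC024175 rows moved the median change of all rows at 5 months from -0.06 to -0.13 and -0.12.

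**Figure D3:**
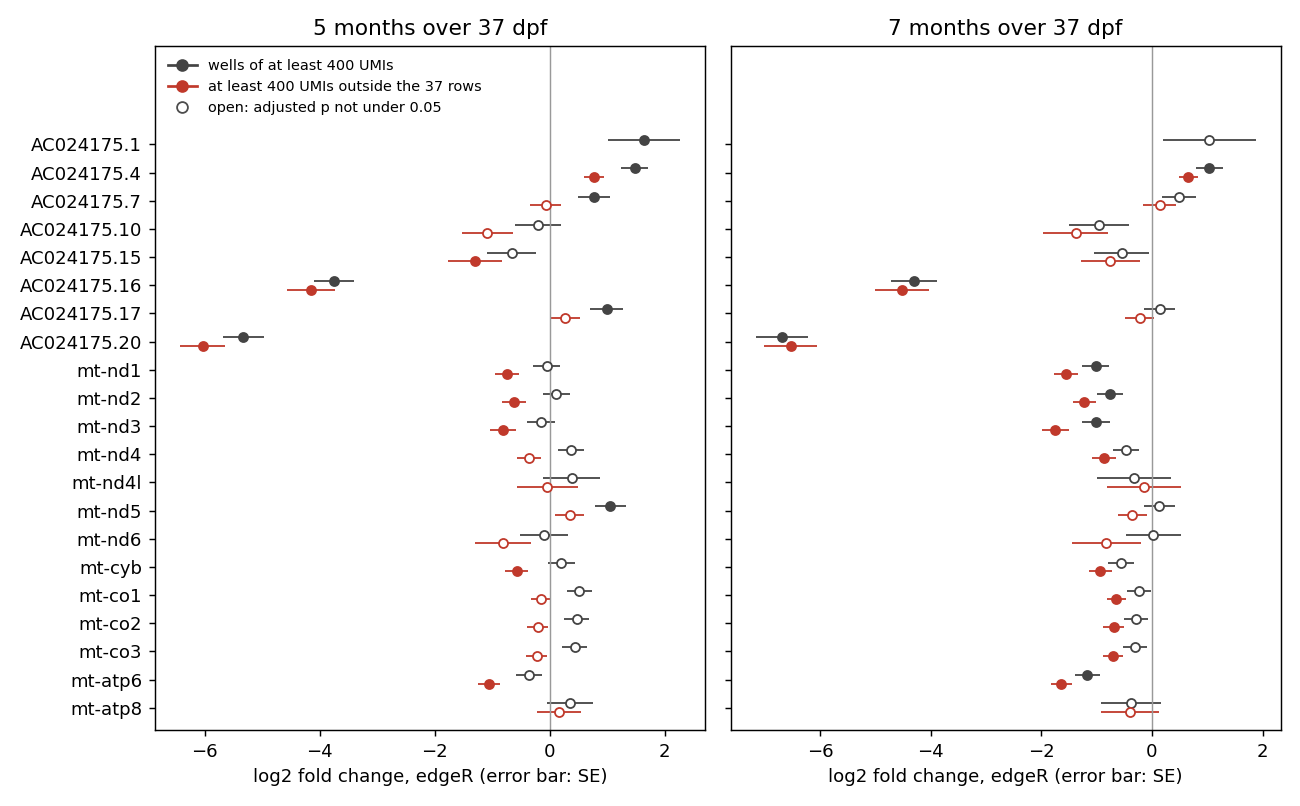
Log2 fold change (x axis, edgeR, bars are SE) of the 21 rows that passed the filter (y axis) at 5 months over 37 dpf and at 7 months over 37 dpf. Dark grey points use all wells of at least 400 UMIs and red points wells with at least 400 UMIs outside these rows; filled points have an adjusted p under 0.05. AC024175.4 is right of 0 and AC024175.16 and AC024175.20 are far left in both panels and both sets of wells, and most mt- rows lie further left in red than in dark grey.

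Most of the tested nuclear genes for mitochondrial proteins were lower in adults when all wells were used. Of 80 tested genes for nuclear subunits of respiratory complexes I to V, 0 were higher and 64 lower at 5 months against 37 dpf, and 1 was higher and 63 lower at 7 months against 37 dpf, where among all rows tested 24.3% and 22.6% were higher and 26.3% and 26.1% lower at the 2 ages. Their median log2 changes were -1.24 and -1.56, against -0.06 and -0.17 over all rows tested. At 5 months the smallest adjusted p-values were those of cox6b1 (a cytochrome c oxidase subunit, -4.32), atp5g3b (an ATP synthase c subunit, -2.04) and atp5h (an ATP synthase stalk subunit, -1.82), with edgeR adjusted p of 6.73e-05 to 0.000246. At 7 months they were atp5g3b (-2.66), atp5h (-2.92) and atp5g1 (-2.65), with edgeR adjusted p of 2.91e-05 to 4.65e-05. At 7 months against 5 months 1 gene was higher, cox4i2 (1.74, edgeR adjusted p 0.0378), and 0 were lower. In wells of at least 800 UMIs, or with no filter on low counts, 0 were higher and 0 lower. The median log2 change of the 80 genes was -0.39, against -0.06 over all rows tested, and 12 had an unadjusted p under 0.05 by edgeR. Of 70 tested genes of mitochondrial transcription, RNA processing and mitochondrial ribosomes, 48 were lower at 5 months and 46 at 7 months against 37 dpf, and 0 were higher. Without erythroid wells, which were found only at 37 dpf, 57 genes of this list passed the low-count filter. Some of the 70 thus passed it only with those wells. With no filter 62 and 59 of 99 were lower. Their median log2 changes were then -1.78 and -2.37, against -0.11 and -0.57 over all rows. The mitochondrial ribosomal protein genes mrpl11 (-2.43), mrps10 (-2.60) and mrpl30 (-2.78) led at 5 months, and mrpl12 (-3.26), mrpl11 (-3.43) and mrpl13 (-2.77) at 7 months, with edgeR adjusted p of 0.000289 to 0.00134. At 7 months against 5 months 0 of these 70 genes were called by edgeR and 0 by DESeq2, and 4 had an unadjusted p under 0.05 by edgeR.

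These counts were smaller when the erythroid wells were left out. Those wells held 408393 of 990934 and 586544 of 1166584 UMIs in wells of at least 400 UMIs on the 37 dpf plates. Leaving them out thus also lowers the depth, and the part of depth in the counts was not tested. Without erythroid wells 31 of 79 respiratory complex genes were lower at 5 months and 43 of 79 at 7 months, with medians of -0.87 and -1.23 against -0.04 and -0.08 over all rows tested. Without them 15 and 14 of 57 genes of the other list were lower, with medians of -1.09 and -1.52. Among all rows tested without erythroid wells 15.1% were lower at 5 months and 16.5% at 7 months. At 5 months the respiratory complex count was 35 without the first 5-month plate and 32 without the second, and the count of the other list was 20 without the first 37 dpf plate, 17 without the first 5-month plate and 20 without the second. At 7 months the count of the other list was 27 without the first 37 dpf plate or the first 7-month plate.

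At 5 months the wells of a plate fell into those with a small and those with a very large share of these rows, and at 7 months a smaller number of wells spread over the large shares. At least 50% of UMIs lay in the mt- and AC024175 rows in 1 of 311 and 7 of 339 wells at 37 dpf, 85 of 257 and 71 of 174 wells at 5 months, and 29 of 203 and 16 of 106 wells at 7 months. As shares these were 0.322% and 2.06% at 37 dpf, 33.1% and 40.8% at 5 months and, at 7 months, 14.3% and 15.1%. The exact 95% intervals were 27.4% to 39.2% and 33.4% to 48.5% on the 5-month plates, and 9.78% to 19.9% and 8.88% to 23.4% on the 7-month plates, for counting error only. At 5 months 92 wells had at least 80% of their UMIs in these rows, at 7 months 14 and at 37 dpf 1. The wells of at least 50% held 35.7% and 47.3% of all mt- and AC024175 UMIs of the 5-month plates and 20.8% and 28.9% of those of the 7-month plates. Among the remaining wells the combined share was 15.7% and 19.0% at 37 dpf, 24.3% and 26.0% at 5 months and, at 7 months, 24.5% and 25.2%. The 5-month and 7-month plates then overlapped, and both adult ages stayed above 37 dpf.

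Since these wells were chosen by their share among wells of at least 400 UMIs, many UMIs in these rows and few in the others are in part set by the choice, and both are given as a description. On the 5-month plates they had a median of 476 and 497 UMIs in the mt- and AC024175 rows, against 388 and 409 in the remaining wells, and a median of 120 and 92 UMIs in all other rows, against 1383 and 1203. On the 7-month plates they had 394 and 397 UMIs in these rows, against 227 and 160.5, and 131 and 123 in all other rows, against 749 and 549. What the rows held was alike: AC024175.4 was 81.0% and 82.4% of their UMIs in such wells at 5 months, against 81.0% and 82.2% in the remaining wells and, at 7 months, 85.5% and 84.3%, against 85.4% and 85.1%. Most of these wells had no marker class. Of the 156 such wells at 5 months, 120 had none, 20 were pituicyte, 6 gonadotropin-rich, 5 stromal and 2 macrophage wells, and of the 45 at 7 months 32 had none and 12 were pituicyte wells. A class needs at least 3 marker UMIs, which a well with few other UMIs reaches less readily, so class shares of these wells are not compared. In the non-member UMIs of such wells the pituicyte markers made up 1.44% and 1.56% at 5 months, against 0.844% and 0.939% in the remaining wells and, at 7 months, 3.61% and 1.45%, against 1.49% and 1.85%. The gonadotropin-rich markers made up 1.45% and 0.751% at 5 months, against 6.02% and 5.42%. Macrophage markers were also lower there at 5 months, with 0.588% and 0.127%, against 1.01% and 1.19%. So were other hormone markers, with 0.499% and 0.0924%, against 1.19% and 0.258%. Stromal markers made up 0.250% and 0.994%, against 0.490% and 0.574%, so their direction differed between the 5-month plates.

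Among wells of at least 100 UMIs the share was lower in wells with more UMIs on the 5-month plates and varied less on the juvenile ones. Over all wells with a UMI, Spearman's rho across wells between total UMIs and the percent in these rows was -0.21 and -0.03 at 37 dpf, -0.61 and -0.03 at 5 months and, at 7 months, -0.30 and 0.05, so the second 5-month plate showed almost no relation there. That plate had 116 wells of 1 to 49 UMIs, in which the share was 37.8%, and the first had 16 such wells at 46.0%. Among wells of at least 400 UMIs, rho was -0.12 and -0.05 at 37 dpf, -0.59 and -0.54 at 5 months and, at 7 months, -0.25 and -0.02, given as a description since the total is the denominator of the share. By steps of total UMIs, the 5-month share was 63.1% and 69.5% in wells of 400 to 799 UMIs, 43.0% and 43.2% in wells of 800 to 1599, 25.1% and 33.7% in wells of 1600 to 3199, and 24.4% and 26.2% above. The 7-month share was 37.1% and 30.7% in wells of 400 to 799 UMIs and 25.2% and 31.5% in wells of 800 to 1599. On the 37 dpf plates it stayed between 15.5% and 22.0% in all 4 steps. Below the limit, wells of 100 to 199 UMIs held 76.7% and 80.9% at 5 months and 60.4% and 60.9% at 7 months. The UMIs in these rows and the UMIs in all other rows of a well went together on every plate over all wells with a UMI, with rho 0.91 and 0.90 at 37 dpf, 0.61 and 0.80 at 5 months and, at 7 months, 0.68 and 0.82. In wells of at least 400 UMIs, a limit on the sum of both quantities, rho was 0.87 and 0.88 at 37 dpf, 0.22 and 0.08 at 5 months and, at 7 months, 0.17 and 0.03. The UMIs per well of AC024175.4 and of the mt- rows, not scaled for depth, went together on every plate. Their rho lay between 0.77 and 0.93 in wells of at least 400 UMIs, and a link between them beyond depth was not tested. The points of a plate share 1 library preparation and depth.

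**Figure D4:**
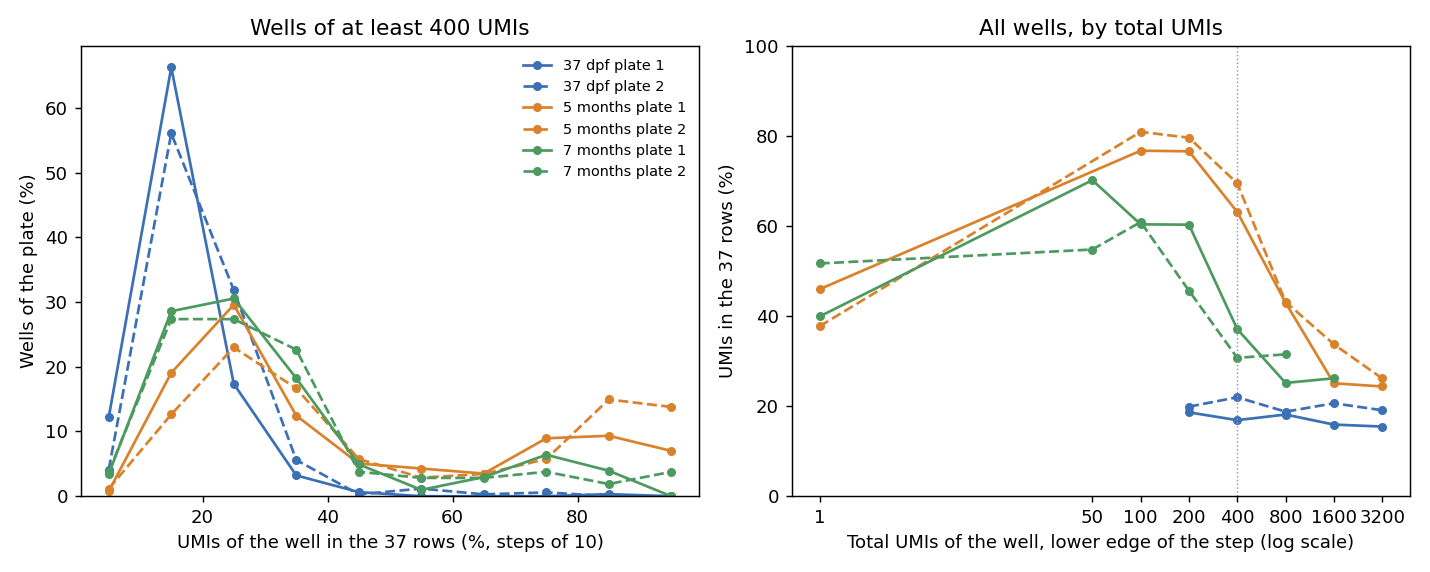
Left, percent of the wells of each plate (y axis) by the percent of the well's UMIs in the 37 rows (x axis, steps of 10, plotted at their centre), in wells of at least 400 UMIs. Right, percent of UMIs in the 37 rows (y axis, 0 to 100) over wells grouped by total UMIs (x axis, log scale), shown for groups of at least 10 wells, with a dotted line at 400. The 5-month plates have a second rise above 70% on the left; on the right they start at 46.0% and 37.8% in wells of 1 to 49 UMIs, reach near 80% in wells of 100 to 399 and lie near 25% above 3200, while the 37 dpf plates stay near 15% to 22%.

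Marker classes were set from the share of marker UMIs among the UMIs outside the mt- and AC024175 rows. The limits were 2% for pituicyte wells, which also needed a UMI of cyp26b1, 5% for gonadotropin-rich wells, 2% for macrophage and for stromal wells, and 3% for erythroid wells. Further limits were 3% for keratinocyte, 1% for endothelial, 2% for cartilage and 5% for other hormone wells. Each well needed at least 3 UMIs over at least 2 markers, or over 1 for other hormone wells. Wells that met more than 1 rule were left out of the classes. This gave 161 pituicyte, 53 gonadotropin-rich, 88 macrophage, 154 stromal and 143 erythroid wells. It also gave 54 keratinocyte, 14 endothelial, 43 cartilage and 14 other hormone wells, and 35 wells met more than 1 rule. The pituicyte wells were 10 of 650 at 37 dpf, 70 of 431 at 5 months and 81 of 309 at 7 months. Of the 1390 wells 631 met no rule, so the classes do not give the share of pituicytes among the cells labelled as neurohypophysis-enriched. The classes are ranges of a score: 32 pituicyte wells lay within 25% above the limit and 46 wells within 25% below it, and 46 and 65 for stromal wells. In the class wells the markers made up 2.96% to 5.33% of the other UMIs in pituicyte wells, against 0.127% to 0.483% in the other wells of the same plates. Doublets were not called.

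Against the other wells of their plates, macrophage wells held a larger share in these rows once wells with few other UMIs were left out. With at least 400 UMIs outside these rows, macrophage wells held 20.6% and 26.5% at 37 dpf, against 15.5% and 18.7% in other wells, and 29.9% and 30.1% at 5 months, against 23.7% and 25.2%. All 4 macrophage values were above those of the other wells of the plate, by 4.86 to 7.77 percentage points. This set of wells was chosen after seeing the data. In it edgeR's test of macrophage against other wells called 0 of 16 rows higher, while 365 of the 1986 rows tested were higher. AC024175.4 had a log2 change of 0.07 (edgeR adjusted p 0.673), where the median over all rows tested was -0.32. The 7-month plates had 7 and 4 such macrophage wells, under the limit of 10, with 32.0% and 36.7%, which was 8.53 and 13.3 points above the other wells. Adult pituicyte wells were below the other wells, with 22.6% and 23.7% at 5 months, against 25.3% and 26.7% in other wells and, at 7 months, 22.4% and 23.6%, against 24.6% and 25.5%. The 3 and 7 pituicyte wells of the 37 dpf plates, also under the limit of 10, held 29.7% and 21.4%, against 15.6% and 19.1%. Gonadotropin-rich wells held 22.1% and 24.2% at 5 months, against 25.9% and 26.9%, but their markers, which set the class, made up 21.1% and 18.9% of their other UMIs. Without the UMIs of these markers they held 26.5% and 28.2%, against 26.0% and 26.9%, so the direction turned. Stromal wells held 20.5% on the first 7-month plate, against 25.4%, and lay within 1.56 points of the other wells on the 4 plates of 37 dpf and 5 months. With at most 4 plates for most classes and 5 for stromal wells, an exact sign-flip test over plates cannot reach 0.05, and none was made.

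**Figure D5:**
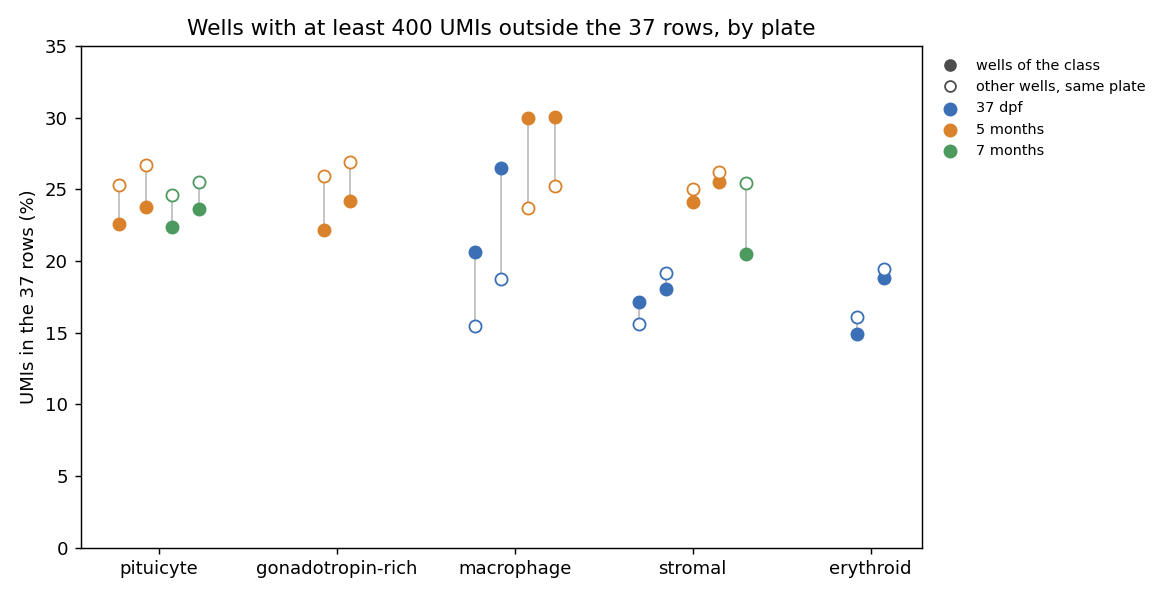
Percent of UMIs in the 37 rows (y axis) in wells of each marker class (filled) and in the other wells of the same plate (open), joined by a line, 1 pair per plate with at least 10 such wells, coloured by age; only wells with at least 400 UMIs outside these rows are used. The 4 macrophage pairs have the filled point on top, by 4.86 to 7.77 points, and the 4 pituicyte and 2 gonadotropin-rich pairs have it below; without the marker UMIs of the class the gonadotropin-rich points are above the other wells and the pituicyte and macrophage pairs keep their order.

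Over all wells of at least 400 UMIs the adult class wells were mostly lower than the other wells, which then include the wells of at least 50%. The classes also differed in depth. On the 5-month plates the median total was 3257 and 2705.5 UMIs in gonadotropin-rich wells and 3431 and 3819 in macrophage wells. It was 1327 and 1152.5 in pituicyte wells, 1113 and 819 in stromal wells, and 897 and 722 in wells with no class. On these plates the share fell with total UMIs, and class differences, here and above, were not adjusted for depth. Pituicyte wells held 26.9% and 29.4% at 5 months, against 32.9% and 40.6% in other wells and, at 7 months, 28.2% and 26.3%, against 28.6% and 33.4%. Without pituicyte marker UMIs the first 7-month plate turned, with 29.3% in pituicyte wells, against 28.7%, and the other 3 plates stayed lower. Gonadotropin-rich wells held 25.3% and 26.4% at 5 months, against 34.4% and 42.1%, and 30.1% and 30.7% without their marker UMIs, against 34.5% and 42.1%. Macrophage wells held 20.7% and 26.7% at 37 dpf, against 15.6% and 18.9%, and 29.9% and 30.1% at 5 months, against 32.7% and 40.2%, so the difference had opposite signs at the 2 ages. Stromal wells held 24.3% and 31.5% at 5 months, against 32.8% and 39.4%, and 21.1% on the first 7-month plate, against 30.8%. Erythroid wells of the 37 dpf plates held 14.9% and 18.8%, against 16.4% and 19.9%. Without erythroid marker UMIs they held 16.4% and 20.6%, against 16.5% and 19.9%, so the mean difference turned to 0.289 points.

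Stromal wells had the most rows called in the test of class against other wells within plates. They also had the most plates, 5 against at most 4 in the other classes, so these numbers do not rank the classes. In edgeR's quasi-likelihood test with plate as a block, 0 of 15 rows were higher and 10 lower, against 14% higher and 12.9% lower among all rows tested. They were AC024175.4, AC024175.17, mt-nd2, mt-nd4, mt-nd5, mt-cyb, mt-co1, mt-co2, mt-co3 and mt-atp6, with log2 changes of -0.63 to -1.07 and edgeR adjusted p of 0.000804 to 0.0307, where the median over all rows tested was -0.35. With at least 400 UMIs outside these rows 0 of 15 were higher and 5 lower, against 13.3% and 12%. These 5 were AC024175.17 (-0.72), mt-co1 (-0.68), mt-co2 (-0.61), mt-atp6 (-0.53) and AC024175.4 (-0.39). The median over all rows tested was -0.37, so AC024175.4 lay close to it. In stromal wells mt-co1 had 9479 and 8864 CPM at 37 dpf, 6656 and 9651 CPM at 5 months and 6133 CPM on the first 7-month plate, each below the level given above for all wells of that plate. The calls of mt-co3, mt-nd2 and mt-nd4 were lost without either 5-month plate.

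In the other classes few rows passed. In gonadotropin-rich wells 0 of 13 rows were higher and 4 lower, against 15.8% higher and 21.4% lower among all rows tested: mt-co3 (-0.78), mt-nd2 (-0.68), mt-cyb (-0.65) and mt-atp6 (-0.60), with edgeR adjusted p of 0.0196 to 0.05. In macrophage wells 0 of 18 rows were higher and 1 lower, mt-atp6 (-0.74, edgeR adjusted p 0.0264), against 15.8% and 17.3%, a call lost without the second 37 dpf plate (adjusted p 0.072) and without either 5-month plate (0.054 and 0.115, edgeR). In pituicyte wells 0 of 13 rows were higher and 1 lower, AC024175.7 (-1.17, edgeR adjusted p 0.0427), against 21.5% and 20%, a call lost without either 5-month plate or the first 7-month plate, where 6 other rows were called. Without the second 7-month plate 2 rows were called. In erythroid wells 0 of 20 rows were higher and 1 lower, AC024175.7 (-0.55, edgeR adjusted p 0.0267), against 13.1% and 26.6%. None of these calls held with at least 400 UMIs outside these rows, where 2 gonadotropin-rich, 1 macrophage, 0 pituicyte and 4 erythroid rows had an unadjusted p under 0.05 by edgeR. The log2 change of AC024175.7 there was -1.19 in pituicyte wells (edgeR adjusted p 0.119) and -0.49 in erythroid wells (0.0500), while that of mt-atp6 was -0.28 in macrophage wells and the 4 gonadotropin-rich ones lay between -0.28 and -0.01.

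Over all wells of at least 400 UMIs, the class effect on some rows in macrophage wells was called different between 5 months and 37 dpf. In a test of that difference, 0 of 18 rows were higher and 8 lower, against 1.28% higher and 5.1% lower among all rows tested. They were mt-co1, mt-co2, mt-co3, mt-cyb, mt-nd1, mt-nd2, mt-nd3 and mt-nd4, with log2 differences of -1.13 to -1.55 between the effects (edgeR adjusted p 1.88e-05 to 0.00809). For stromal wells 0 of 16 rows were higher and 4 lower, against 1.38% and 3.32%. With at least 400 UMIs outside these rows none of these 12 differences was called by edgeR, and 1 macrophage and 0 stromal rows had an unadjusted p under 0.05.

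Within a class, few rows were called different between ages. In pituicyte wells at 7 months against 5 months 0 of 12 rows were higher and 0 lower, against 0.713% higher and 0.238% lower among the 421 rows tested, of which 52 had an unadjusted p under 0.05, 0 of the 12 among them, and DESeq2 called 0 of the 12. The pituicyte log2 changes lay between -0.32 and 0.14. In macrophage wells at 5 months against 37 dpf 0 of 15 rows were higher and 2 lower, AC024175.16 and AC024175.20, against 2.24% higher and 2.24% lower (edgeR adjusted p 0.0258 and 0.012). They had 7 and 3 UMIs at 5 months, against 129 and 124 at 37 dpf, a CPM ratio of 0.0423 (95% exact counting interval 0.0167 to 0.0897) for AC024175.16 and of 0.0189 (0.00384 to 0.0564) for AC024175.20. Both rows passed the low-count filter through the 37 dpf plates, so the calls rest on few 5-month counts. Of the 15 rows 8 had an unadjusted p under 0.05 by edgeR, as had 111 of the 581 rows tested. The median log2 change of the 15 rows was -0.60, against 0.02 over all rows tested. Not called were mt-nd3 (-0.89), mt-nd2 (-0.83), mt-nd1 (-0.71) and mt-atp6 (-0.71), nor AC024175.4 (0.82) and mt-nd5 (0.67). Without the second 37 dpf plate 4 rows were called. In stromal wells at 5 months against 37 dpf 3 of 14 rows were called, all lower in this fit: AC024175.16, AC024175.20 and mt-nd1 (-0.85, SE 0.24). The first 2 had 1 UMI each at 5 months, against 51 and 90 at 37 dpf, a CPM ratio of 0.0207 (95% exact counting interval 0.000515 to 0.121) and of 0.0118 (0.000294 to 0.0672). These 2 rows, too, passed the filter through the 37 dpf plates. Among all rows tested 19.3% were called in either direction and 8.78% were lower. Of the 14 rows 5 had an unadjusted p under 0.05 by edgeR, as had 107 of the 353 rows tested. Without the first 37 dpf plate none of these 3 stromal calls remained, with edgeR adjusted p of 0.217, 0.09 and 0.172, and that of mt-nd1 was also lost without the first 5-month plate (0.342). AC024175.4 had a log2 change of 1.24 in stromal wells (edgeR adjusted p 0.132). It was called higher with at least 400 UMIs outside these rows (1.00, edgeR adjusted p 0.0244), with no filter on low counts, by DESeq2, at class limits times 0.5 and without either 5-month plate, over which settings the adjusted p was 3.37e-06 to 0.0244, while without either 37 dpf plate it was 0.663 and 0.586.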

How the data were processed

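The deposited tables hold raw UMI counts per gene and well, and the authors applied no normalization in them. Per the submitters' processing notes, bcl2fastq 2.15.0.4, Seurat 3.1.5 and the build danRer10 were used; the aligner, annotation and filters are not given in the sources used here. A deposited well table gave the sequencing batch. Counts of wells with at least 400 UMIs were summed per plate, or per plate and class, and tested with edgeR 4.0.16 (TMM, filterByExpr, glmQLFit and glmQLFTest, Benjamini-Hochberg at 0.05) in R 4.3.3; 1 fit held all 6 plates for ages, and class tests had plate as a block. SE is the log2 change over the square root of F. DESeq2 1.42.0 was an alternative. The age test and the pituicyte class test were also run on simulated counts with known changes. Those counts were drawn independently per plate, so they do not cover the shared pool or the batch. Summaries used Python 3.11.15 and pandas 2.3.3. The 37 rows and the lists were chosen with earlier results of these data known, and class limits were set after marker distributions were seen. Every member is named; of the nuclear lists, up to 3 called genes per comparison with the smallest adjusted p are. Names were matched in an NCBI gene table and in RefSeq GRCz12tu, a different build, so no coordinates are given. PCR and shared library steps mean that intervals and limits cover counting error only.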

Additional observations from a re-analysis of the deposited data

Results flagged for a closer look

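Over all wells of at least 400 UMIs, the class effect on some rows was called different between ages by the test of the difference itself. In it the class effect (class against other wells) at 37 dpf was subtracted from that at 5 months. For macrophage wells the log2 difference was -1.24 for mt-co1, -1.15 for mt-co2, -1.55 for mt-co3, -1.34 for mt-cyb, -1.13 for mt-nd1, -1.42 for mt-nd2, -1.16 for mt-nd3 and -1.19 for mt-nd4. For stromal wells it was -0.89 for AC024175.17, -0.47 for AC024175.4, -0.64 for mt-co1 and -1.04 for mt-nd1. Among wells with at least 400 UMIs outside the mt- and AC024175 rows the macrophage differences were -0.13 to -0.57 (edgeR quasi-likelihood, Benjamini-Hochberg adjusted p 0.124 to 0.858), and the stromal differences -0.46 to 0.21 (edgeR adjusted p 0.504 to 0.971). At 5 months macrophage wells held 29.9% and 30.1% of their UMIs in these rows in both sets of wells. The other wells held 32.7% and 40.2% over all wells of at least 400 UMIs, and 23.7% and 25.2% with 400 outside. On the 5-month plates 2 of 34 macrophage wells and 5 of 46 stromal wells had at least 50% of their UMIs in these rows, against 156 of all 431 wells. The part of such wells in the difference was not tested.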

How the results depend on the processing

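Alternatives were other scaling (DESeq2 size factors, or without the 37 rows), no filter on low counts, DESeq2, wells of at least 800 UMIs, and class limits times 2 or times 0.5. Others were wells with at most 30% of UMIs in mt- rows, wells with at least 400 UMIs outside the 37 rows, age tests without erythroid wells, and each plate left out. The limit of 30% changed no count by more than 1.5 times. It does not cover AC024175.4, and the mt- rows held 3.21% to 5.17% of UMIs per plate. It could thus leave out few wells, and does not show how results depend on wells rich in the 37 rows. The tests of a difference between ages, the nuclear list alternatives, the class shares with 400 UMIs outside and the correlation in wells of at least 400 UMIs were chosen after seeing the data. At 7 months against 5 months 0 rows were called, 1 with size factors, 7 with no filter, 6 by DESeq2 and 0 to 8 without a plate. At 5 months against 37 dpf 7 were, 3 with no filter, 4 from 800 UMIs and 2 to 9 without a plate. At 7 months against 37 dpf 7 were, 11 with no filter, 12 with 400 UMIs outside the rows and 5 to 13 without a plate. In pituicyte wells 1 was called, 13 with no filter, 0 by DESeq2, with 400 UMIs outside or at limits times 2, 4 at limits times 0.5 and 0 to 6 without a plate; by age 0 were, and 1 at limits times 2. In gonadotropin-rich wells 4 were called, 9 with size factors, 12 with no filter, 2 by DESeq2, and 0 from 800 UMIs, with 400 outside or at limits times 0.5. In macrophage wells 1 was called, 3 with no filter or at limits times 2, 0 from 800 UMIs or with 400 outside, and 0 to 1 without a plate; by age 2 were, 5 at limits times 0.5 and 2 to 4 without a plate. Its difference between ages went from 8 rows to 0 with 400 outside. In stromal wells 10 were called, 5 with 400 outside and 7 to 11 without a plate; by age 3 were, and 0 to 4 without a plate. Its difference between ages had 4 rows, 2 with size factors, 1 scaled without the rows, and 0 by DESeq2 or with 400 outside. In erythroid wells 1 was called, 8 with size factors, 4 scaled without the rows, 5 at limits times 0.5, 1 with at most 30% mt- UMIs, and 0 with no filter, by DESeq2, from 800 UMIs, with 400 outside or at limits times 2.

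Respiratory complex genes lower at 5 months numbered 64, 31 without erythroid wells and 32 to 68 without a plate, and 63 at 7 months, 52 to 65 without a plate. The gene expression list had 48 lower at 5 months, 22 by DESeq2, 15 without erythroid wells and 17 to 61 without a plate, and 46 at 7 months, 21, 14 and 27 to 50. The combined share was 25.5% at 5 months and 24.5% at 7 months with 400 outside, and 26.3% at 7 months as a median over wells. Class minus other wells was -12.3 points for gonadotropin-rich wells, -3.24 with 400 outside and 0.897 with 400 outside and no marker genes; 0.00634 for macrophage wells, -0.338 at limits times 0.5; and -1.25 for erythroid wells, 0.289 without their marker genes, -2.01 at limits times 2, -0.897 with 400 outside and 0.641 with 400 outside and no marker genes. For pituicyte wells it was -6.16 points, and -1.61 with 400 outside and no marker genes. Spearman's rho of share and total moved on the second 5-month plate to -0.54 in wells of at least 400 UMIs, against -0.026 over all wells, and turned on the second 7-month plate to -0.018, against 0.047. With 400 outside, direction turned at 5 months against 37 dpf for AC024175.7 (-0.071), mt-cyb (-0.57) and mt-nd2 (-0.62), and, with no call in either set of wells, for mt-co1 (-0.15), mt-co2 (-0.20), mt-co3 (-0.23), mt-nd4 (-0.36) and mt-nd4l (-0.04). It also turned for the stromal difference between ages of AC024175.4 (0.21). The cause was not tested. Scaling without the rows moved the median difference of all rows from -0.18 to 0.05 for macrophage and from -0.17 to 0.07 for stromal wells. No plate could be left out for gonadotropin-rich and erythroid wells, which had 2 plates, and too few plates had enough gonadotropin-rich, macrophage or stromal wells for some stricter limits. No paired analysis was possible because each age came from its own pool, so plates of different ages do not pair; class tests compared wells within plates. Depth limits the 7-month plates most.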
